A study of Rattus norvegicus with 47 samples.

Results

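Whole blood taken from rats 6 months after they had breathed crystalline silica was compared with whole blood of rats that had breathed filtered air. The comparison used the 12 of 47 libraries of the series that the labels give as blood at 6 months, 6 of silica rats (animals 58 to 63) and 6 of air rats (animals 51 to 56). All were healthy male Fischer 344 rats, an inbred strain, weighing 250 to 300 g at the start. The silica group inhaled Min-U-Sil 5, a fine quartz dust, by whole-body exposure at 15 mg/m3 for 6 hours a day on 5 days. The air group breathed filtered air in the same way, and both were killed 6 months later. Blood was drawn into EDTA tubes, its RNA was depleted of alpha and beta globin transcripts, and stranded libraries were made from polyadenylated RNA. The series also holds blood and lung taken 1 day after exposure and lung taken at 6 months. The labels do not say which rats shared a chamber or cage, nor when blood was drawn, so treatment and chamber cannot be told apart, and each library is 1 animal of an inbred strain.

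Inhaled silica lodges in the lung, where macrophages take it up, and it is known for lasting inflammation, granulomas and fibrosis there. RNA of whole blood comes from neutrophils, monocytes, lymphocytes, platelets and young red cells, and it is read as a window on such inflammation because neutrophils and monocytes pass through blood on their way to the lung. In bulk blood, fewer cells of a type and less RNA per cell cannot be told apart. The comparison asked which blood transcripts still differed at 6 months, and how large a difference the libraries leave room for.

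The libraries carried the markers of blood. Alas2, which starts heme synthesis in red cell precursors, averaged 28870 CPM in silica and 29730 CPM in air blood, CPM being counts scaled to library size. Cd3e, of the T cell receptor complex, averaged 89.4 CPM in silica and 84.9 CPM in air blood, and the platelet chemokine Pf4 735 CPM in silica and 801 CPM in air blood. Of 20 marker genes of lung, liver, heart, muscle, fat and skin only Ager, of alveolar type 1 cells, reached the level needed for testing (1.31 CPM in silica and 1.34 CPM in air blood). The surfactant gene Sftpc never exceeded 1 count in a library. Total estimated counts ran from 9.64e6 to 13.5e6 in silica and from 11.4e6 to 19.3e6 in air libraries. The mean total was 11724000 in silica and 15228000 in air libraries (two-sided exact permutation p = 0.0390, which adjustment over 5 such measures made 0.103). Genes with at least 1 count averaged 15009 in silica and 15374 in air libraries (exact permutation p = 0.0411, adjusted 0.103). The globin counts left after depletion took 3.71% ± 0.31 of silica and 3.94% ± 1.53 of air libraries (SD, n = 6 each, exact permutation p = 0.836). Since silica libraries were the shallower, counts were also thinned to the smallest library, an alternative chosen after the data were seen.

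Blood at 6 months held 1 gene past the test. Of 30045 genes listed, 11629 had enough counts to be tested, and edgeR's quasi-likelihood test called 1 of them, 0.0086% (adjusted p under 0.05), as higher in silica and 0 as lower. The gene with the second smallest p had an adjusted p of 0.539. At an unadjusted p under 0.05 there were 1012 genes, 8.7% of those tested, of which 580 (4.99%) had a positive and 432 (3.71%) a negative estimate. DESeq2 called 2 genes, both higher in silica, and limma-voom called 1. Log2 fold changes of silica over air had a median of -0.0087 over all genes, and from the lowest to the highest twentieth they ran from -0.28 to 0.25. The median size of a log2 fold change, whatever its sign, was 0.089.

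The gene called was Phf3, a PHD finger protein that in human cells binds RNA polymerase II. Its levels in the 6 silica libraries had a lowest value of 24.1, a median of 24.9 and a highest of 26.6 CPM, against 17.7, 19.3 and 20.7 CPM in the 6 air libraries. Every silica library lay above every air library, a separation without overlap that 44 genes of the 11629 showed (0.378%), 31 with silica above (0.267%) and 13 with silica below air (0.112%). The log2 fold change was 0.38 ± 0.052 (SE, adjusted p = 0.0214), a 1.3-fold rise with a 95% interval of 1.2- to 1.4-fold. The call held in 1 of the 12 fits that left out a single library, the one without air 53, and was lost in the other 11. Over all 12 the adjusted p ran from 0.0191 to 0.0968 and the estimate from 0.35 to 0.40. With counts thinned to the smallest library it was 0.39 (adjusted p = 0.156). In the other blood and lung comparisons Phf3 had a log2 fold change of -0.03 in blood at 1 day (adjusted p = 0.893) and -0.05 in lung at 6 months (adjusted p = 0.480).

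**Figure D1:**
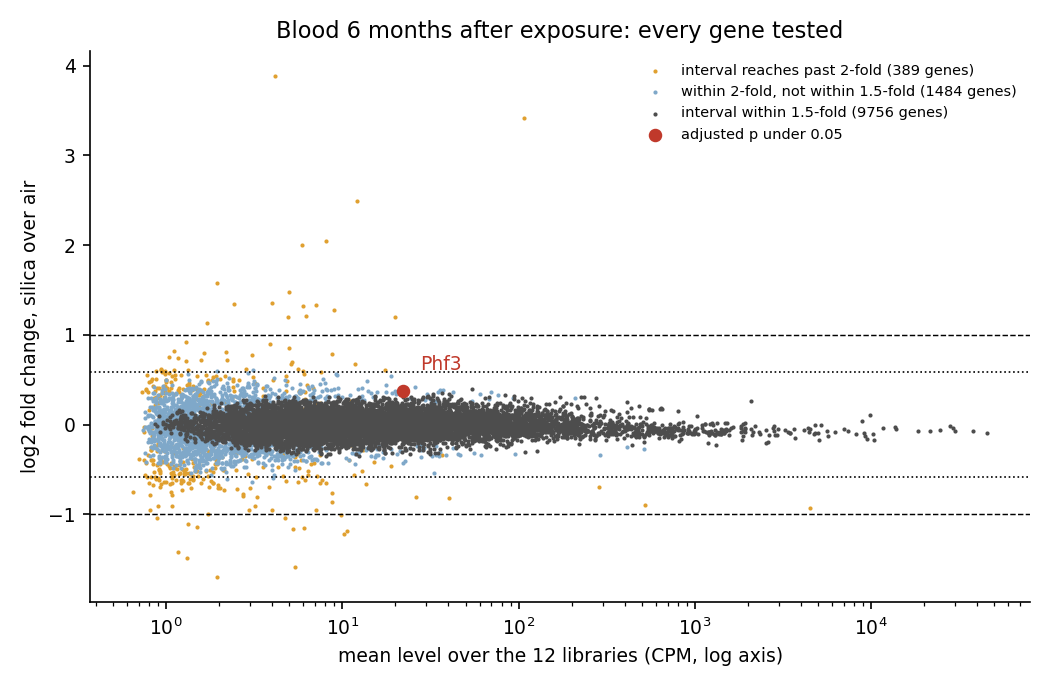
Each point is 1 of the 11629 genes tested in blood at 6 months, with the mean level over the 12 libraries (CPM, log axis) across and the log2 fold change of silica over air upward. Dotted lines mark 1.5-fold and dashed lines 2-fold. Phf3 is the 1 gene past the threshold, and the genes in orange, whose 95% intervals reach past 2-fold, are 389 and mostly lie at low levels.

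How large a difference the data leave room for was read from the 95% interval of each gene's fold change. For 11240 of the 11629 genes (96.7%) the whole interval lay within 2-fold of no change, and for 9756 (83.9%) within 1.5-fold. Each interval stands for its gene alone. With equivalence p-values adjusted over all genes, a setting added after the data were seen, 11360 genes passed at 2-fold and 10152 at 1.5-fold. Before adjustment such a p-value is a looser criterion for a single gene than the 95% interval, so the larger counts are not a stricter check. The end of the interval farther from no change lay at 1.25-fold for the median gene and at 1.64-fold for the 90th percentile. The median SE was 0.10 on the log2 scale, and the common biological coefficient of variation between animals was 12.1%. For a gene to be called alone among the 11629 it needed an unadjusted p of 4.3e-06, which at the median SE is a log2 change of 0.69, or 1.61-fold. Smaller differences could thus go uncalled, and the interval of a gene gives only the largest difference it leaves room for. The median change needed for a lone call was 4.19-fold under 1 CPM, 2.1-fold from 2 to 5 CPM and 1.45-fold from 10 to 50 CPM.

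The bounds tightened with the level of the gene up to 50 to 100 CPM, and no further above that. Among the 286 genes averaging under 1 CPM the median interval reached to 1.84-fold, and 66.8% were bounded within 2-fold but only 2.8% within 1.5-fold. Among 1158 genes of 1 to 2 CPM the reach was 1.63-fold and 87.2% were bounded within 2-fold. From 5 to 10 CPM the reach was 1.27-fold, and among 4318 genes of 10 to 50 CPM it was 1.18-fold, with 99.5% bounded within 2-fold and 97.5% within 1.5-fold. All 927 genes of 50 to 100 CPM were bounded within 2-fold. The reach was 1.16-fold both from 50 to 100 CPM and from 100 to 1000 CPM. Above 1000 CPM, where 122 genes lay, it was wider again, at 1.19-fold. The narrowest intervals belonged to Larp1, an RNA-binding regulator of ribosomal protein messages, Cap1, an actin regulator, and the tetraspanin Tspan13. Larp1 had a log2 fold change of -0.11 with an interval of -0.20 to -0.016, and every silica library (72.6 to 78.2 CPM) lay below every air library (80.0 to 84.2 CPM). The Cap1 interval ran from -0.07 to 0.11 and that of Tspan13 from -0.06 to 0.13.

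**Figure D2:**
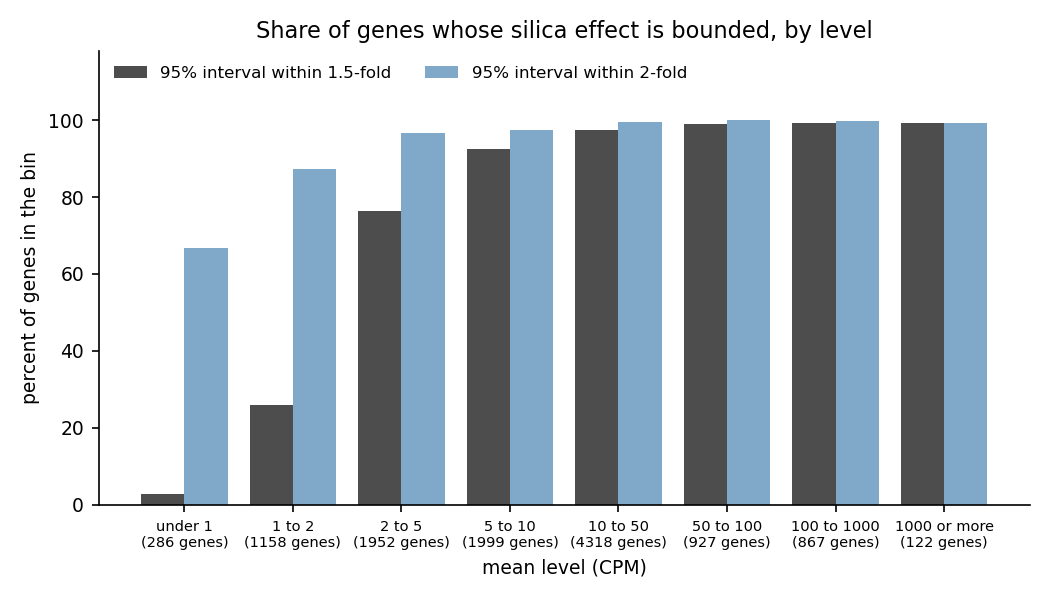
Bars give the percent of genes whose 95% interval of the silica over air fold change lay within 1.5-fold (dark) and within 2-fold (blue) of no change, for 8 bins of mean level in CPM. The dark bar climbs from 2.8% under 1 CPM to 92.6% at 5 to 10 CPM.

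Of the 389 genes not bounded within 2-fold, 309 averaged under 5 CPM and 26 at least 10 CPM. Of the 26, 5 had libraries at 0 in both groups. 1 of the 2 gene models named Gata1, a red cell transcription factor, was at 0 in silica 58, 59 and 60 and in air 52, but at 91.8 CPM in silica 62 and 91.5 CPM in air 51. Brms1, Eif3h, Ndst2 and Aldh18a1 were the other 4. How estimated counts were shared among gene models may enter such values and was not tested. Others rested on 1 library. Rn28s, a ribosomal RNA, was at 108 CPM in silica 62 and at 0.94 to 4.69 CPM in the other silica libraries, against 0 to 6.95 CPM in air. LOC102723236 was at 1000 CPM in silica 62, at 88.4 CPM in silica 58 and at most 31.0 CPM in the other silica libraries, against 9.7 to 23.9 CPM in air. In all, 29 genes had an estimate of at least 2-fold and 131 of at least 1.5-fold, and none of these was called. The intervals of LOC102723236 and LOC100912042 were the 2 that lay wholly past 1.5-fold, and LOC100912042 was at 0 in 2 silica and 4 air libraries.

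After Phf3, the 14 named genes with the smallest p had an adjusted p of 0.539 each and are given as values. Csf2rb, the shared signalling chain of the receptors for GM-CSF, IL-3 and IL-5, ranged over 52.2 to 70.0 CPM (median 62.0) in silica and over 38.6 to 52.9 CPM (median 48.0) in air blood. The lowest silica value lay just under the highest air value. Its log2 fold change was 0.40 ± 0.083, and DESeq2 called it (adjusted p = 0.0450). Fosl2, a subunit of the AP-1 factor, ranged over 8.03 to 10.5 CPM in silica and 5.12 to 7.70 CPM in air blood, without overlap (log2 0.46 ± 0.11). Ifi27, an interferon-inducible gene, ranged over 96.3 to 126.1 CPM in silica and 125.5 to 148.7 CPM in air blood (log2 -0.29 ± 0.068). Birc2, an inhibitor of apoptosis, was separated without overlap as well (25.7 to 28.3 CPM in silica, 20.8 to 24.7 CPM in air, log2 0.23 ± 0.054).

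The rest were of mixed roles. Positive estimates went to the deubiquitinase Usp28 (log2 0.42 ± 0.10), the chromatin remodelling ATPase Ep400 (log2 0.27 ± 0.066), the zinc finger gene Zfp862 (log2 0.58 ± 0.14), the DNA damage kinase Atm (log2 0.30 ± 0.074) and the histone acetyltransferase Kat6a (log2 0.32 ± 0.081). Usp28, Ep400 and Zfp862 separated the groups without overlap. Negative estimates went to Ikbip (log2 -0.57 ± 0.13), the small GTPase Arl2 (log2 -0.23 ± 0.058), the G protein gamma subunit Gng5 (log2 -0.24 ± 0.058), the lectin Fcna, ficolin A (log2 -0.41 ± 0.10) and Pwwp2b (log2 -0.64 ± 0.16). Ikbip, Fcna and Arl2 had every silica library below every air library. Each of these intervals lay within 2-fold of no change.

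**Figure D3:**
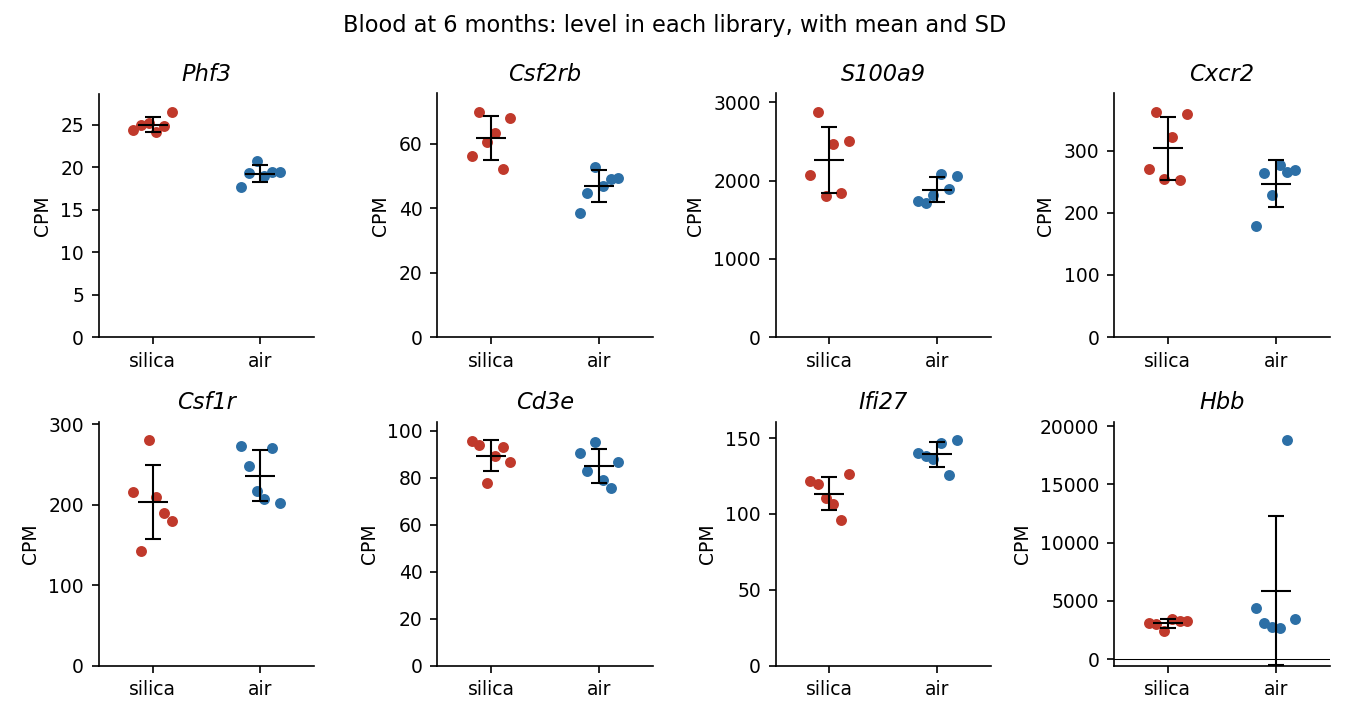
Levels of 8 genes in CPM for each of the 6 silica (red) and 6 air (blue) blood libraries at 6 months, with the mean and SD in black. Phf3 has no overlap, Csf2rb and Ifi27 overlap slightly, and the wide SD of Hbb in air comes from 1 library at 18850 CPM.

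Cell and pathway genes were read through 26 lists holding 598 genes, of which 512 were tested. The edgeR test called 0 list members in either direction, beside 1 of 11629 genes (0.0086%), and DESeq2 and limma-voom also called 0 of them. At an unadjusted p under 0.05 there were 28 positive and 31 negative members of the 512. Of all 11629 genes 580 (4.99%) were positive and 432 (3.71%) negative at that p. Negative estimates were thus the more numerous among list members, and positive ones among all genes. Of the 512, 444 (86.7%) were bounded within 1.5-fold, beside 83.9% of all genes, and 507 within 2-fold.

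Neutrophil genes had the highest median of the lists, log2 0.17 over 22 tested members, beside -0.0087 over all genes. None of the 22 was called. At an unadjusted p under 0.05, 8 of the 22 had a positive and 2 a negative estimate, beside 4.99% and 3.71% of all genes. Bounded within 1.5-fold were 15 (68.2%), beside 83.9% of all genes, and all 22 were bounded within 2-fold. S100a9, which forms calprotectin with S100a8 and is abundant in neutrophils, had a lowest value of 1810, a median of 2268 and a highest of 2883 CPM in silica blood, against 1718, 1851 and 2091 CPM in air blood (log2 0.26 ± 0.11, adjusted p = 0.548). Its partner S100a8 ran from 672 to 1068 CPM in silica and from 658 to 840 CPM in air blood (log2 0.15 ± 0.10, adjusted p = 0.671). The G-CSF receptor Csf3r was at log2 0.26 ± 0.12, the chemokine receptor Cxcr2 at 0.30 ± 0.12, the collagenase Mmp8 at 0.31 ± 0.12 and the decoy receptor Il1r2 at 0.30 ± 0.13, with adjusted p of 0.539 to 0.563. The groups overlapped for each.

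The silica animals were uneven in these genes. Summed over the 22 members, silica 59, 61 and 63 held 6459, 5634 and 5759 CPM, and silica 58, 60 and 62 held 4781, 4318 and 4342 CPM, against 4053 to 4985 CPM in air blood. The first 3 lay above every air library and the other 3 lay within the air range. The list's estimates ran from -0.43 to 0.45 on the log2 scale. The lowest was that of Ngp, neutrophilic granule protein, at -0.43 ± 0.16 (18.7 CPM in silica and 25.2 CPM in air blood). Cd177, a surface protein of neutrophils, was at -0.32 ± 0.16, and Lcn2, Ltf and Mpo were too low to test, Lcn2 with at most 4 counts in a library.

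Monocyte genes had the lowest median, log2 -0.14 over 21 tested members, 17 of them negative, where 47.3% of all genes had an estimate above 0. At an unadjusted p under 0.05, 0 were positive and 3 negative, beside 4.99% and 3.71% of all genes. Within 1.5-fold lay 14 (66.7%), beside 83.9% of all genes. Csf1r, the receptor for the monocyte growth factor, ran from 143 to 280 CPM (median 200.1) in silica and from 202 to 273 CPM (median 232) in air blood (log2 -0.22 ± 0.13, adjusted p = 0.639). Cx3cr1, the fractalkine receptor of patrolling monocytes, was at log2 -0.26 ± 0.13, and the receptor gene Emr1 at -0.34 ± 0.12 (adjusted p = 0.539). The groups overlapped for all 3. Monocyte sums were lowest in silica 59, at 5626 CPM, the library highest in neutrophil genes, and ran from 5626 to 7116 CPM in silica and 6569 to 7733 CPM in air blood.

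Of the lymphocyte lists, T cell genes were bounded most closely. Within 1.5-fold lay 85% of B cell genes and 80% of NK and cytotoxic genes, beside 83.9% of all genes. All 24 T cell genes lay within 1.5-fold, with a median of log2 0.06 and no member at an unadjusted p under 0.05. Cd3e was at 0.07 (95% interval -0.07 to 0.21), the helper cell co-receptor Cd4 at -0.12 (-0.32 to 0.08) and the killer cell co-receptor Cd8b at -0.02 (-0.20 to 0.15). Of 20 B cell genes 17 lay within 1.5-fold (median -0.05), with Ms4a1, which encodes CD20, at -0.0044 (-0.27 to 0.26). The 20 NK and cytotoxic genes had a median of -0.125, 16 of them within 1.5-fold. Air 51 stood apart, with 74.7 CPM of Nkg7 and 60.5 CPM of the granzyme Gzmb, against at most 48.8 and 32.5 CPM in the other air libraries. Gzmb had a wide interval, from -0.83 to 0.31 on the log2 scale.

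Red cell and platelet genes also gave no call. Of 39 erythroid and heme genes 37 lay within 1.5-fold, and their median was log2 -0.08. Alas2 was at -0.04 (95% interval -0.24 to 0.16) and the anion exchanger Slc4a1 at -0.06 (-0.27 to 0.16). The exception in width was Hbb, a beta globin, with 2404 to 3489 CPM in silica blood, against 18850 CPM in air 55 and 2697 to 4420 CPM in the other air libraries. The Hbb log2 fold change was -0.93 ± 0.41 (95% interval -1.79 to -0.058, adjusted p = 0.563), and without air 55 it was -0.09. The excess in air 55 was not limited to Hbb. LOC100134871 was at 1975 CPM there and at 348 to 530 CPM in the other air libraries, and LOC689064 at 1005 CPM and 192 to 276 CPM. Hba1 was at 37020 CPM in air 55 and 32790 CPM in air 56, against 19410 to 20690 CPM in the other air libraries. The globin share was highest in air 55, at 6.76%. Globin transcripts were depleted before sequencing, and the part of that step in these values was not tested. The platelet list had a median of -0.02 and 19 of 20 members within 1.5-fold, with the integrin Itga2b at -0.0046 (-0.18 to 0.17), and the ADP receptor P2ry12 had its smallest p (log2 -0.22 ± 0.073).

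**Figure D4:**
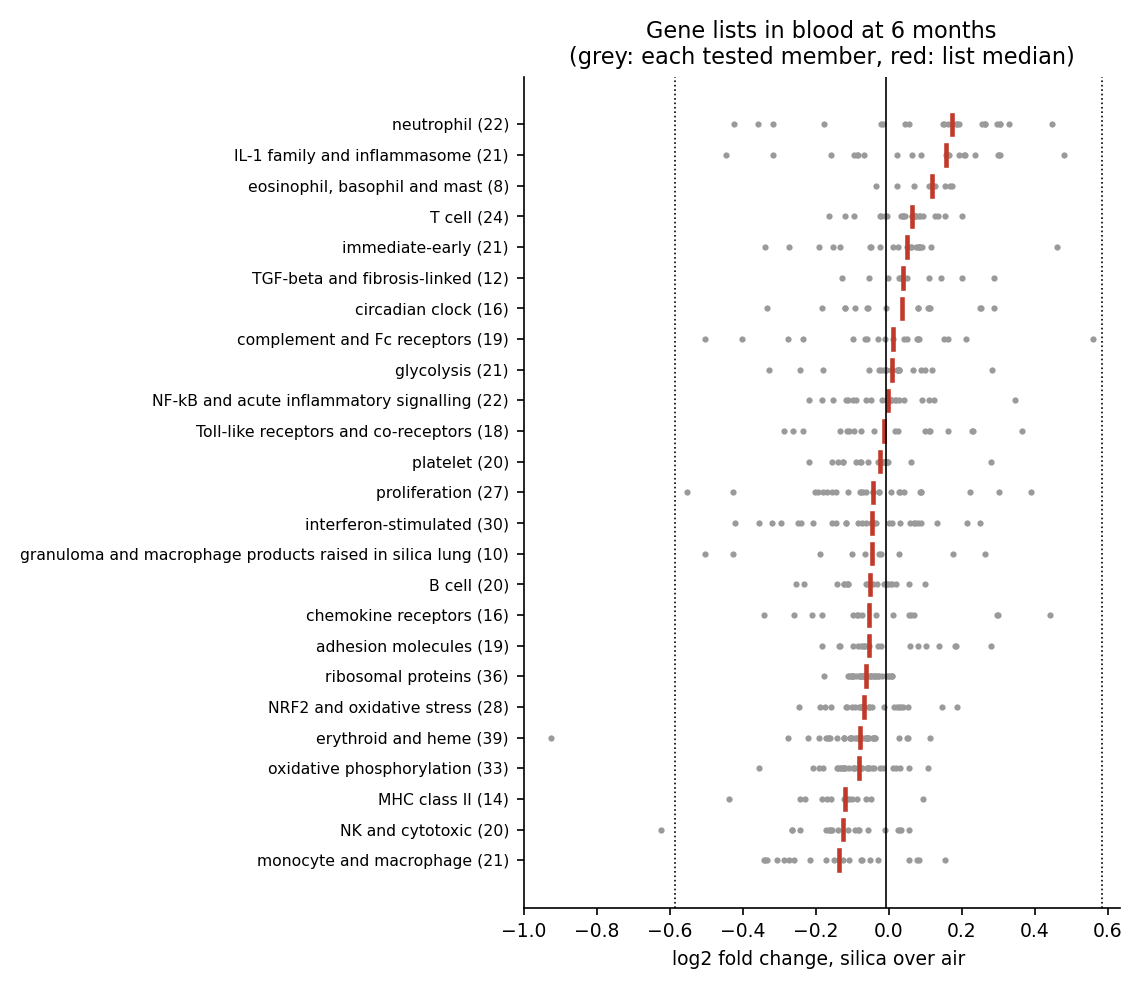
Each grey point is the log2 fold change of silica over air of a tested member of the list named at the left, with the number tested in brackets, and each red bar is the list median. The solid line is the median of all genes, the dotted lines are 1.5-fold, and the medians run from -0.14 (monocyte) to 0.17 (neutrophil).

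Inflammatory signalling showed small estimates of both signs. In the IL-1 and inflammasome list, the sensing route that silica crystals are known to trigger in macrophages, 21 genes were tested with a median of log2 0.16. Of these 7 had a positive and 1 a negative estimate at an unadjusted p under 0.05, beside 4.99% and 3.71% of all genes, and 0 were called. The sensor Nlrp3 ran from 78.8 to 110.1 CPM in silica and from 74.9 to 95.9 CPM in air blood (log2 0.24 ± 0.085, adjusted p = 0.539). The IL-18 receptor chain Il18rap was at 0.48 ± 0.14, while Pycard, the adaptor that links the sensor to caspase 1, had a mean of 31.2 CPM in silica and 38.8 CPM in air blood (log2 -0.32). The cytokine Il1b itself was at 0.16 ± 0.09, with an interval of -0.03 to 0.35. Il1r2 is in the neutrophil list as well. The summed members were highest among silica libraries in the same 59, 61 and 63 (1439, 1320 and 1355 CPM), with 1180 to 1215 CPM in silica 58, 60 and 62, against 1117 to 1348 CPM in air blood. The part of neutrophil RNA in this list was not tested.

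Genes of NF-kB and acute inflammation had a median of log2 -0.0017, 21 of 22 within 1.5-fold and 0 at an unadjusted p under 0.05. Sod2, an NF-kB target that makes mitochondrial superoxide dismutase, was at 0.03 (-0.10 to 0.16). Of 30 interferon-stimulated genes 27 lay within 1.5-fold (median -0.05). At an unadjusted p under 0.05, 5 had a negative and 0 a positive estimate, beside 3.71% and 4.99% of all genes. The 5 were Ifi27, Oas1a, Oas2, Irf7 and Bst2, from -0.42 for Oas2 to -0.21 for Irf7. Isg15 (-0.04) and Mx1 (-0.06) were near 0. In the MHC class II list 13 of 14 estimates were negative (median -0.12), where 47.3% of all genes had an estimate above 0. The lowest was the costimulatory gene Cd86 (log2 -0.44), and the smallest p was that of the protease Ctss (log2 -0.24 ± 0.077). Among 19 complement and Fc receptor genes C4b was at 0.56 and the enzyme components C2 and Cfb at -0.40 and -0.50, none called. The NRF2 oxidative stress list had a median of -0.07 with 27 of 28 within 1.5-fold, and heme oxygenase Hmox1 was at -0.19 ± 0.16.

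Housekeeping lists had small and mostly negative estimates, none called. Of 36 ribosomal protein genes 32 had negative estimates (median log2 -0.06), and all 36 lay within 1.5-fold. Of 33 genes of oxidative phosphorylation 28 were negative (median -0.08), with Ndufa1, of complex I, lowest at -0.36 ± 0.11. Of all genes 47.3% had an estimate above 0. Silica 63 held the smallest sums of both lists, 25750 and 2706 CPM. The other silica libraries held 29980 to 30940 and 3279 to 3365 CPM, and air blood 28810 to 33490 and 3150 to 3679 CPM. Median sums were 30680 and 3345 CPM in silica and 31230 and 3223 CPM in air blood, so the second list had the higher median in silica. The TMM factor of silica 63 was 1.17, against 0.934 to 1.02 in the other silica and 0.951 to 1.05 in air libraries. The part of silica 63 in the negative signs was not tested. Proliferation genes (median -0.04, 27 tested), clock genes (0.04, 16 tested), glycolysis genes (0.0098, 21 tested) and genes linked to TGF-beta and fibrosis (0.04, 12 tested) gave no call. Adhesion molecules (-0.06, 19 tested), chemokine receptors (-0.05, 16 tested), Toll-like receptors (-0.01, 18 tested) and immediate-early genes (0.05, 21 tested) gave none either. A list of granuloma and macrophage products, drawn up from genes already known to be raised in these silica lungs, had 10 of 20 members tested and a median of -0.05. Collagens Col1a1 and Col3a1, the osteopontin gene Spp1 and Timp1 were too low in blood to test.

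Blood at 6 months was then set beside blood at 1 day, taken from other rats, to ask whether the silica effect differed between the times. At 1 day 168 of 12253 genes were called (1.37%). S100a8 was at log2 0.15 ± 0.10 at 6 months and at 0.76 ± 0.065 at 1 day (adjusted p = 1.33e-04). S100a9 was at 0.26 ± 0.11 at 6 months and 0.77 ± 0.074 at 1 day (adjusted p = 3.0e-04), and Mmp8 at 0.31 at 6 months and 0.71 at 1 day (adjusted p = 0.00208). Csf3r (0.26 at 6 months, 0.31 at 1 day) and Cxcr2 (0.30 and 0.39), also of the neutrophil list, were closer between the times. Their effects at 6 months minus those at 1 day were -0.05 and -0.08 (edgeR interaction test, adjusted p = 0.956 and 0.916). The chitinase-like gene Chi3l1 was at 0.18 ± 0.077 at 6 months and at 0.44 at 1 day (adjusted p = 0.00225). The test of the difference between the times called 0 of 12444 genes by edgeR and 0 by limma-voom, with 1326 (10.7%) at an unadjusted p under 0.05. The smallest adjusted p was 0.117. It was shared by S100a8, whose effect at 6 months minus that at 1 day was -0.60 ± 0.13. The same adjusted p went to the peptidylarginine deiminase Padi4 (-0.45), Hopx (-0.40) and the selenoprotein Msrb1 (-0.39). On the positive side it was shared by Zfp862 (0.98 ± 0.18), Phf3 (0.42), Ep400 (0.50), Scaf4 (0.54), Ankhd1 (0.50) and Ppfia1 (0.44). Zfp862, Phf3 and Ep400 were already among the named genes with the smallest p at 6 months. The time test uses those blood values again and gives them no separate support. Leaving out silica 59 brought S100a8, Msrb1 and Zfp862 past the threshold (adjusted p = 0.0494 each). The call of these 3 differences thus turned on 1 library.

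Lung of the same cohort gave the scale against which blood was read. At 6 months, in 6 silica and 5 air lungs, 2484 of 15309 lung genes were called (16.2%), 1507 higher and 977 lower in silica lung. Of those higher in lung 1189 were also tested in blood, where 0 were called and 1029 (86.5%) were bounded within 1.5-fold. Their median log2 fold change was 0.32 in lung and -0.02 in blood. The median lung change thus lay within 1.5-fold itself, so that bound alone does not set blood apart from lung. At an unadjusted p under 0.05 there were 137 in blood (11.5%), beside 8.7% of all genes. For 944 of the 1189 (79.4%) the lung estimate lay outside the 95% interval of the blood estimate. That count leaves out the error of the lung estimates. In the interaction test described below, 361 of the 1189 passed, each with the lower effect in blood. Among the 59 genes raised at least 2-fold in lung and tested in blood the median log2 fold change was -0.02 in blood and 1.19 in lung. For 58 of them the lung estimate lay outside the blood interval, and 46 passed the interaction test. These genes were chosen for their lung values, so the counts describe how far blood differed from them and give no test of the sets. Of the 610 lower in lung and tested in blood, 0 were called and 510 were bounded within 1.5-fold. Their median log2 fold change was -0.20 in lung and -0.00032 in blood. The lung estimate lay outside the blood interval for 294 (48.2%), and 87 passed the interaction test. Only 3 were at least 2-fold lower in lung, with a blood median of -0.73, 2 of them at an unadjusted p under 0.05. None of the 3 passed the interaction test.

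The difference between the tissues was tested in 1 fit over blood and lung. The silica effect in blood minus that in lung passed the threshold for 557 of 15790 genes (3.53%), 399 lower (2.53%) and 158 higher (1%) in blood. With the animal as a block, over the 9 animals that gave both tissues, 202 genes passed, 152 lower and 50 higher in blood, and 461 passed in those libraries without the block. The complement component C3, in circulation mainly a liver product, had the smallest p. It averaged 102 CPM in silica and 107 CPM in air blood, with a blood log2 fold change of -0.07 ± 0.079 and a lung value of 1.19. The difference was -1.24 ± 0.12 (adjusted p = 3.56e-06, 6.54e-04 with the block). Sod2 was at 0.03 in blood and 1.04 in lung (difference -0.99 ± 0.098). Tmem173, which encodes the DNA response adaptor STING, was at 0.02 in blood, with an interval of -0.10 to 0.14, and 0.93 in lung (difference -0.89 ± 0.097).

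Other genes raised in lung had blood estimates of either sign. The neutrophil chemokine Cxcl6 averaged 0.764 CPM in silica and 1.04 CPM in air blood (log2 -0.43 in blood, 2.91 in lung). The monocyte chemokine Ccl2 was at 1.31 CPM in both (log2 -0.03 in blood, 2.69 in lung). Sulfiredoxin, Srxn1, was at -0.10 in blood and 1.24 in lung, the intramembrane protease gene Rhbdl2 at -0.11 and 2.05, and Cd177 at -0.32 and 1.42. All of these differences passed with and without the block. S100a9 was at 0.26 in blood and 1.51 in lung (difference -1.22 ± 0.19, adjusted p = 7.62e-04), and Il1r2 at 0.30 and 1.38 (adjusted p = 0.0493). Chi3l1 was at 0.18 ± 0.077 and 1.19, a difference of -0.99. The ribonucleotide reductase subunit Rrm2, of DNA synthesis, was at 0.39 ± 0.14 in blood and 1.23 in lung. Calls that the block lost included Dhrs9 (adjusted p = 0.0953 with the block), Uhrf1 (0.167) and Tesc (0.0776). Phf3 differed the other way, at 0.38 in blood and -0.05 in lung (difference 0.46 ± 0.065, adjusted p = 3.63e-04, 0.0173 with the block). Phf3 was named for its blood values, which this test uses again. Its p-value here is thus no separate support for the blood call.

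**Figure D5:**
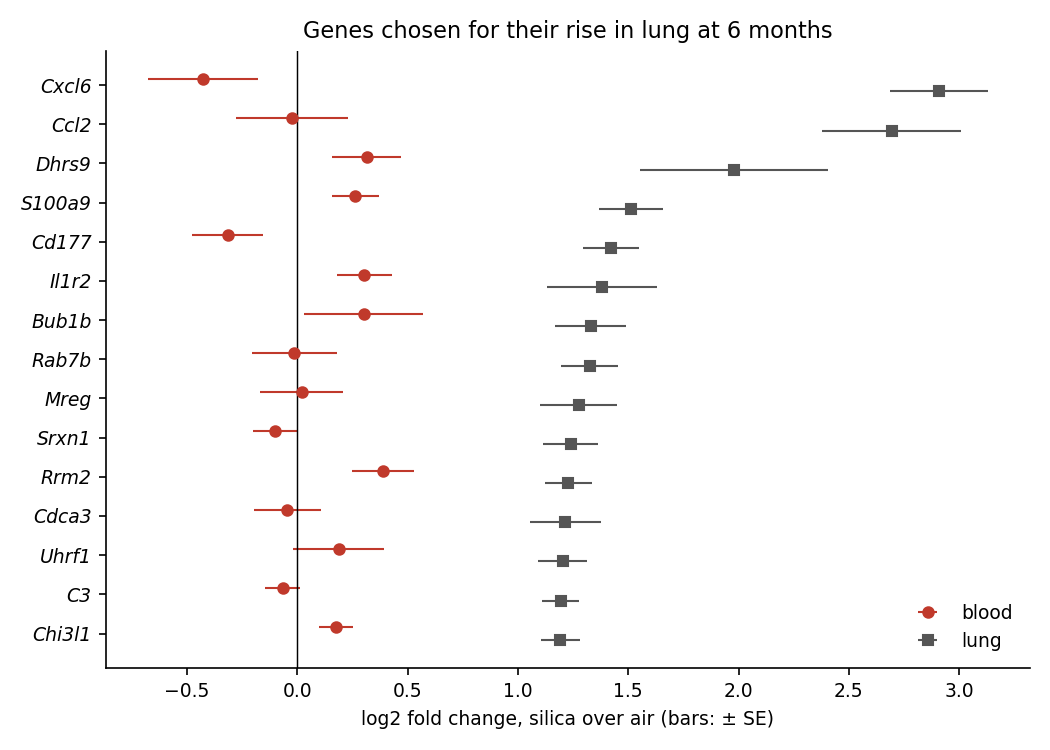
Silica over air at 6 months on the log2 scale, with SE, for the 15 genes with the largest rises in lung among called genes with a symbol, at least 5 CPM in the higher lung group and a test in blood, with blood in red above lung in grey for each. The lung values chose the genes, and the blood estimates lie between -0.43 and 0.39.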

How the data were processed

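RNA was measured in whole blood and lung. Named in the notes of the submitters on processing are Salmon 1.10.1, STAR 2.6.1d, Trim Galore 0.6.7, cutadapt 3.4, bcl2fastq 2.19 and build Rnor_6.0; their roles are not given in the sources used here. The deposited tables hold the authors' estimated counts per gene, not normalized and not always whole, per the file headers and values. Whole numbers were made of them by rounding. Such counts share reads among similar or overlapping gene models, so paralogs and antisense pairs are uncertain. All columns matched a sample title (0 left over). Libraries were grouped by the labels.

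Silica was tested against air with edgeR 4.0.16 in R 4.3.3 (TMM factors, filterByExpr with minimum count 10, quasi-likelihood test, Benjamini-Hochberg over all genes, threshold 0.05). The SE of a log2 fold change is close to its absolute value divided by the square root of F. The 95% intervals use t at the total degrees of freedom. Intervals and test do not match exactly: 1009 intervals excluded no change, where 1012 genes had an unadjusted p under 0.05. CPM values use TMM library sizes. Time and tissue differences were interactions over 4 groups. Single values per library were compared by exact permutation over 924 arrangements. Blood pairs of a group had chi-square per degree of freedom of 3.14 to 25.5 (30 pairs), so none agreed within sampling noise. Blood and lung titles share animal numbers, which were read as 1 rat each although no label states it, so the rat was a block in an alternative; deviations from group means correlated between the tissues from -0.052 to 0.068 over 9 animals.

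Alternatives were DESeq2 1.42.0, limma-voom from limma 3.58.1 (also with library weights), upper-quartile or RLE factors, 1 surrogate variable from sva 3.50.0, no filter on counts and a minimum count of 50. Further ones were all 4 blood groups in 1 model, a fit without mitochondrial rRNA, globin and erythroid genes, a test against 1.5-fold, robust dispersion, gene models of a name summed, 99% intervals and leaving out each library. Thinned counts, equivalence tests and leaving out lung libraries were added after the data were seen.

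The 26 lists and the named genes were chosen with earlier results of these data known. Named were 39 anchor genes of blood cells and inflammation, called genes of at least 5 CPM, and the 15 smallest p-values with a symbol. Also named were the smallest p of each list, the 15 largest rises and 5 largest falls in lung (called, with a symbol, at least 5 CPM in the higher lung group, tested in blood), the 8 smallest p of each interaction, the 5 most counted genes and the 3 narrowest intervals. Of the list genes 11, among them Ccr2, Il7r, Ighm and Jchain, are not analysed here. A floor is 3 counts per library and covers counting error only.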

Additional observations from a re-analysis of the deposited data

Results flagged for a closer look

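Of 120 sets of 6 libraries examined, 10 held a library far from the other 5, where chance flags about 1 in 20 sets. Silica 63 held 28000 CPM of the ferritin light chain Ftl1 (others 37200 to 41200), 24.7 CPM of Arl2 (others 28.3 to 29.4) and 23.5% of its counts in the 10 most counted genes (others 25.9 to 27.1%). Silica 62 held a globin share of 4.31% (others 3.48 to 3.78%) and 10.6 CPM of Oas1a (others 16.2 to 19.5). Silica 60 held 3.76 CPM of Pwwp2b (others 1.94 to 2.26). Air 55 held 18900 CPM of Hbb (others 2700 to 4420). Air 51 held 74.7 CPM of Nkg7 (others 34.0 to 48.8), 60.5 CPM of Gzmb (others 16.2 to 32.5) and 36.8 CPM of Arl2 (others 31.5 to 33.1). The part of any of these libraries in the results above was not tested beyond leaving each out.

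The silica effect differed between blood and lung by the interaction test for the 8 named genes with the smallest p. On the log2 scale, blood minus lung, the differences were -1.24 for C3, -0.985 for Sod2, -0.891 for Tmem173, -3.31 for Cxcl6, -2.13 for Rhbdl2, -0.991 for Chi3l1, -1.31 for Srxn1 and -1.71 for Cd177.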

How the results depend on the processing

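The 1 call in blood at 6 months was also made with limma-voom, library weights, RLE or upper-quartile factors, either other filter, 1 surrogate variable, all 4 blood groups, the fit without globin and erythroid genes, robust dispersion and summed gene models, and it was Phf3 each time. DESeq2 called 2 (Phf3 and Csf2rb), the test against 1.5-fold called 0 and thinned counts 0. Leaving out a library gave 0 to 1 calls. Genes bounded within 1.5-fold ranged over 9456 to 9684 without a library and those within 2-fold over 11169 to 11248. With 99% intervals they were 8608 and 10844, and with thinned counts 9197 and 10907 of 11389 tested. The time difference called 0 under each alternative except without a library, 0 to 3. The tissue difference called 556 with limma-voom and with RLE, 574 at the higher filter and 445 to 609 without a library; its split with RLE was 188 higher and 368 lower in blood. With the replicate block it called 202. Lung calls were 1863 to 2610 without a library. Of values of single genes under the alternatives, 523 stayed within the spread between replicates or kept their call. Another 13 lost a call, all Phf3, with the fit without air 51 entered again as the lowest leave-one-out estimate. The thinned fit is not in these counts. Of the rest, 1 gained a call (Csf2rb with DESeq2) and 1 moved (Hbb, -0.09 without air 55 against -0.93 with it). Intervals were widest for genes under 2 CPM; the share of depth in that was not tested by level.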

Other observations

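Genes linked to granulocytes other than neutrophils were also read in blood at 6 months. Of 8 tested eosinophil, basophil and mast cell genes 7 had positive estimates, with a median of log2 0.12 and none called. The lipoxygenase Alox15 had a log2 fold change of 0.11 (95% interval -0.12 to 0.34), the lectin Siglec5 0.13 (-0.09 to 0.34), the basophil enzyme Hdc 0.17 (-0.23 to 0.58) and the chemokine receptor Ccr3 -0.04 (-0.28 to 0.20). The eosinophil granule genes Epx and Prg2 were too low to test, with at most 6 and 18 counts in a library. Summed over the 8 genes, silica libraries held 8096 to 12410 CPM and air libraries 8709 to 11680 CPM. Siglec5 held only 178 to 253 CPM of this in silica and 153 to 219 CPM in air blood. The highest and lowest silica sums were those of silica 59 and 63, also highest and lowest in Alas2 among silica libraries (34630 and 23100 CPM). In air blood the extremes of the sum and of Alas2 fell on different libraries. The part of red cell RNA in the sum was not tested, so it is no measure of these granulocytes.

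Among chemokine receptors the gut-homing receptor Ccr9 was at 0.44 ± 0.13 and Ccr1 at 0.30, beside Cxcr2, and the Toll-like receptors Tlr1 and Tlr6, which pair with Tlr2, were both at 0.23, while the endosomal Tlr7 was at -0.26 ± 0.096. None of these passed the test. The clock gene Per2 was at 0.29 ± 0.11, and Arntl at 0.08 and Dbp at -0.12 lay nearer 0.

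The first 2 principal components of the 12 libraries held 14.3% and 12.6% of the variance. Silica 59 lay at one end of the first and air 51 at the other, and silica 62 lay alone at one end of the second.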
